A study of Homo sapiens with 12 samples.

Results

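The genes described here are 35 genes of the endoplasmic reticulum (ER) folding machinery and of the unfolded protein response, taken by symbol from the platform's probe table. Of the 35, 33 had a probe there, and 30 were above background and entered the tests among 10529 genes. HERPUD1 and SEC61G, which had no probe in that table, were not analysed here. HDLM-2 is a human cell line established from Hodgkin lymphoma, and its RNA was measured on 12 Illumina HumanHT-12 V3 bead arrays. The 4 groups were 100 nM givinostat (a histone deacetylase inhibitor), 5 µM sorafenib (which blocks RAF and several receptor tyrosine kinases), both drugs together, and control cultures given neither drug, all at 24 hours. Each group had 3 arrays, lettered A, B and C. Nothing in the labels says that the 3 came from separate cultures, so p-values measure only the spread between these arrays. The arrays measured whole cultures of a single line, so fewer expressing cells and less RNA per cell cannot be told apart.

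Proteins that enter the secretory pathway are folded in the ER by the Hsp70 chaperone BiP (HSPA5) with its J-domain partners, by the Hsp90 GRP94 (HSP90B1), by disulfide isomerases and, for glycoproteins, by the lectins calnexin and calreticulin. Proteins that fail to fold are recognised, pulled back into the cytosol through a membrane complex built on SEL1L, SYVN1 and the derlins, and degraded by the proteasome. When unfolded proteins build up, the sensors ATF6, IRE1 (ERN1) and PERK (EIF2AK3) raise chaperone and degradation genes and lower protein synthesis. IRE1 acts by splicing the mRNA of the transcription factor XBP1. Cells of the B lineage that secrete antibody depend on this system, and XBP1 is known there for expanding the ER.

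Many of these genes carry in their promoters an ER stress response element (ERSE), bound by NF-Y together with ATF6 or XBP1. Promoters of 250 bases before and 50 bases after the annotated start were taken from RefSeq on build GRCh38.p14, where 33 of the 35 genes had an entry. The ERSE was searched on both strands as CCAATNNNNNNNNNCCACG, and the related ERSE-II as ATTGGNCCACG. An ERSE was present in 8 of the 33 genes (24.2%), against 25 of all 27305 genes in the promoter table (0.0916%). ERSE-II was found in 3 of the 33 (9.09%), against 19 of the 27305 (0.0696%). The shorter core ACGTG, searched alone on both strands, was present in 18 of the 33 (54.5%), against 6790 of the 27305 (24.9%), and 3 of its 33 matches in these promoters overlapped an ERSE-II. A match is a match of letters and no measurement of binding. The first pair of sequences below is shown because HSPA5 is the textbook target of the ERSE and its array values fell with sorafenib and with both drugs, while CRELD2 had the highest rise with givinostat. Each runs 5′ to 3′ on the gene's strand over the 250 bases before the start, with the ERSE in capitals. HSPA5 lies on the minus strand at chr9:125241344-125241593 and CRELD2 on the plus strand at chr22:49918384-49918633.
HSPA5: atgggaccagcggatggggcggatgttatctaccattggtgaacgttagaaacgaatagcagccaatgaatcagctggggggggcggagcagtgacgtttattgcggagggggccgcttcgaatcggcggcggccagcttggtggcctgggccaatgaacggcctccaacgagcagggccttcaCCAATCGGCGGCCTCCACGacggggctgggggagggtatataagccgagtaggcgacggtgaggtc
CRELD2: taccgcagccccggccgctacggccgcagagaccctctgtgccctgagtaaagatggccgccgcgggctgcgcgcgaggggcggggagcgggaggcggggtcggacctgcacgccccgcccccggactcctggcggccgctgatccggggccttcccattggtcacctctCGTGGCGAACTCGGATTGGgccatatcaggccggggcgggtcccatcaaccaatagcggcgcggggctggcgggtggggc

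The elements of the other measured genes are shown with 7 bases on either side, so that they can be set beside the values below. Capitals mark the ERSE or ERSE-II, read 5′ to 3′ on the gene's strand, and an element on the other strand therefore appears as its reverse complement. XBP1 (chr22:28800596-28800628), PDIA6 (chr2:10812846-10812878) and ERO1B (chr1:236282176-236282208) lie on the minus strand. HSP90B1, which has 2 elements (chr12:103930209-103930241 and chr12:103930314-103930346), CALR (chr19:12938377-12938409) and CANX (chr5:179698771-179698803) lie on the plus strand. The ERSE-II of SDF2L1 (chr22:21642107-21642131) is on the plus strand, and those of HYOU1 (chr11:119057373-119057397 and chr11:119057267-119057291) are on the minus strand.
XBP1: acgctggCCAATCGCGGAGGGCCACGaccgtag
PDIA6: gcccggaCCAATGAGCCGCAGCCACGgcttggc
ERO1B: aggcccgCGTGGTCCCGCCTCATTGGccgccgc
HSP90B1, distal: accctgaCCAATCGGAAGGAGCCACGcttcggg
HSP90B1, proximal: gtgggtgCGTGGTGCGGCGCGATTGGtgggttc
CALR: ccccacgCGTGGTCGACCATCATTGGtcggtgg
CANX: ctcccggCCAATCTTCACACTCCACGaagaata
SDF2L1: tcggaagCGTGGACCAATcaaaacc
HYOU1, distal: cccgtgaCGTGGTCCAATcccaggc
HYOU1, proximal: cctgggaCGTGGTCCAATgagtacg

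**Figure D1:**
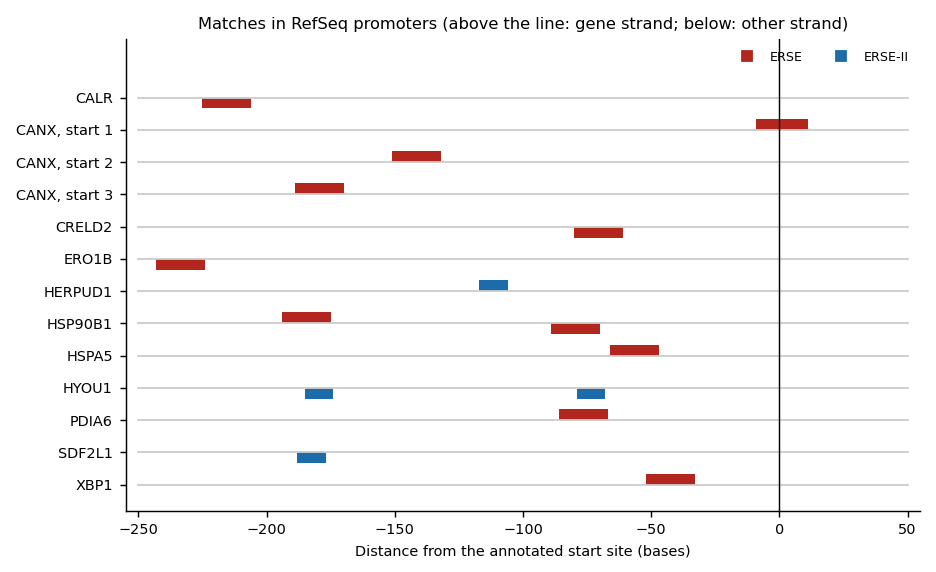
Positions of the ERSE and ERSE-II matches in bases from the annotated start site, for each gene and start that holds one; bars above a line lie on the gene's strand and bars below it on the other strand. CANX has 1 ERSE seen from 3 annotated starts, while the HSPA5 element spans -66 to -48 and the CRELD2 element -80 to -62.

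Signals are given as normalized log2 intensity, and a gene was called changed where limma's adjusted p, by the Benjamini-Hochberg method over all 10529 genes, was under 0.05. The 30 tested genes were above background on 12 of 12 arrays. PDIA3, a disulfide isomerase that works with calnexin, was above background on 1 combination and 1 control array, and PDIA5 and ERN1 on none, so no change could be tested for the probes of these 3. Mean raw intensity per array was between 1034 and 1629.7 units. The lowest, sorafenib array C, also lay farther from its group mean than the others, with a root mean square deviation of 0.221 log2 units against 0.147 to 0.175. Of 9 genes that mark Hodgkin Reed-Sternberg cells, 8 were above background, TNFRSF8 (CD30) and GATA3 among them, and IL13 was not. The B cell genes PAX5 and CD79B, the T cell receptor genes CD3D, CD3E and CD3G and the plasma cell gene JCHAIN were above background on no array, whereas the plasma cell factors IRF4 and PRDM1 and the T cell gene CD2 were above it on all. The B cell gene MS4A1 was above it on 2 of 3 arrays with givinostat and with sorafenib and on 3 of 3 with both drugs and in control. Of the 3 myeloid and 2 fibroblast genes looked at, FCGR3A was above background on 3 of 3 arrays with sorafenib and with both drugs and on 0 with givinostat and in control. COL1A1 was above it on 3 of 3 arrays with givinostat and with both drugs, 1 with sorafenib and 0 in control, while CD14 and LYZ were above it on at most 2 arrays of a group and COL3A1 on none. Their part in the results was not tested.

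Givinostat against control addressed the effect of the histone deacetylase inhibitor alone. CRELD2, SEL1L, DNAJB9, EDEM2, EIF2AK3 and EDEM1 rose and XBP1 fell, so of the 30 genes 6 were higher and 1 was lower. Among all genes tested the shares were 17.6% higher and 15.7% lower, so these counts stood near the background for rises and below it for falls. The median log2 change was 0.14 over the 30 genes and -0.02 over all genes. CRELD2, a cysteine-rich ER protein induced by stress, read 11.95, 11.90 and 11.76 log2 units on givinostat arrays, against 10.92, 10.89 and 11.02 on control arrays. All givinostat arrays lay well above all control arrays, and the log2 change was 0.93 ± 0.13 (SE, adjusted p = 0.000279, limma), a 1.90-fold rise. SEL1L, the adaptor that holds the degradation complex together, read 7.87, 8.15 and 7.74 with givinostat, against 7.49, 7.47 and 7.23 in control. Its groups did not overlap, and the change was 0.52 ± 0.13 (adjusted p = 0.00793, limma). DNAJB9, a J-domain partner of BiP that is a classic target of spliced XBP1, read 10.64, 10.82 and 10.67, against 10.23, 10.26 and 10.32 in control. It rose by 0.44 ± 0.11 (adjusted p = 0.00916, limma) with tight values in both groups.

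Of the mannosidase-like proteins that mark misfolded glycoproteins for disposal, EDEM2 and EDEM1 rose with givinostat. EDEM2 read 10.16, 9.77 and 9.87 on givinostat arrays, against 9.30, 9.47 and 9.30 on control arrays, a rise of 0.58 ± 0.15 (adjusted p = 0.0101, limma). EDEM1 read 11.88, 11.99 and 12.05, against 11.86, 11.55 and 11.57 in control. Its lowest givinostat array lay just above control array A, and the change was 0.31 ± 0.11 (adjusted p = 0.0489, limma). EIF2AK3, the sensor kinase PERK, read 9.56, 9.64 and 9.85 with givinostat, against 9.28, 9.51 and 9.18 in control, a rise of 0.36 ± 0.11 (adjusted p = 0.0258, limma). XBP1 went the other way: it read 13.57, 13.66 and 13.69 on givinostat arrays, against 13.97, 13.82 and 14.17 on control arrays. The fall was 0.35 on the log2 scale with an SE of 0.11 (adjusted p = 0.0238, limma), and its second probe gave -0.37 ± 0.10 (adjusted p = 0.0145, fit over all probes). The splicing state of XBP1 was not analysed here. The arrays of the groups compared were left out in turn. EDEM1 missed the threshold without any single array other than control A (adjusted p 0.0600 to 0.148), EIF2AK3 without control A, control C or givinostat C (0.0761 to 0.102), and XBP1 without control A, control C, givinostat A or givinostat B (0.0502 to 0.0968). The calls of CRELD2, SEL1L, DNAJB9 and EDEM2 held without each of these 6 arrays.

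The main chaperones were not called with givinostat. HSPA5 read 10.89, 11.06 and 10.88 on givinostat arrays, against 10.94, 11.08 and 11.14 on control arrays, a change of -0.11 ± 0.10 (95% interval -0.33 to 0.10, adjusted p = 0.394, limma). HSP90B1 read 14.81, 15.03 and 15.08, against 14.77, 14.74 and 14.99, a change of 0.14 with an interval of -0.09 to 0.37. ATF6, the membrane-bound sensor that is cut to a transcription factor, read 12.07, 11.97 and 12.10, against 11.88, 11.82 and 11.74. Its groups did not overlap, but with a change of 0.23 ± 0.10 it missed the threshold (adjusted p = 0.0903, limma). DERL1 and DERL2, related membrane proteins of the degradation channel, stood just outside the threshold with opposite signs, at 0.27 (adjusted p = 0.0521) and -0.43 (adjusted p = 0.0507). A second probe of DERL2 gave -0.21 (adjusted p = 0.351, fit over all probes).

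**Figure D2:**
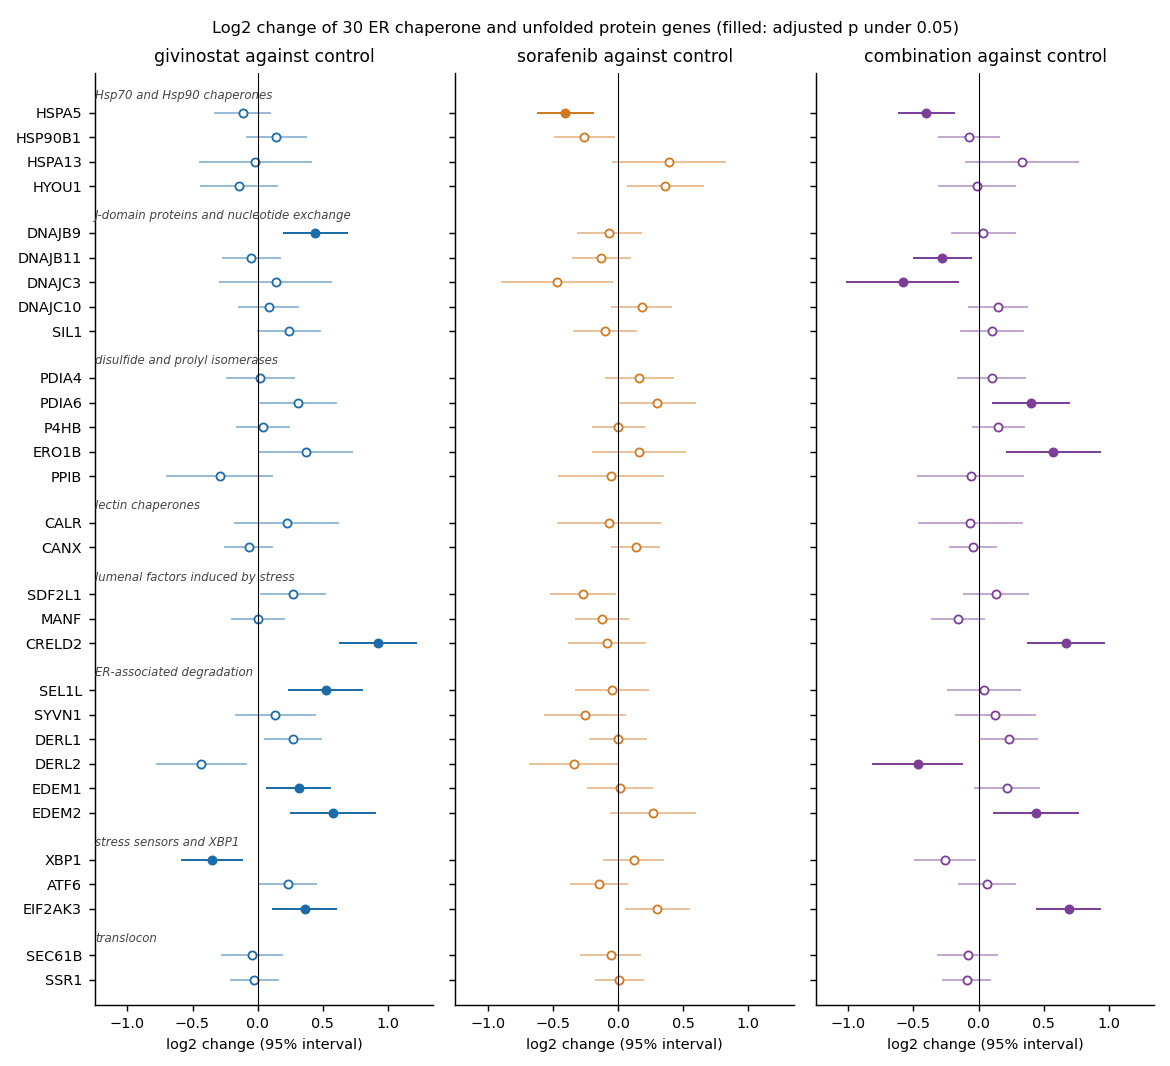
Log2 change of each of the 30 genes against control with its 95% interval, in panels for givinostat, sorafenib and the combination; genes are grouped by role and filled points are those called. Filled points number 7 for givinostat, 1 for sorafenib and 9 for the combination, with CRELD2 farthest right for givinostat and HSPA5 filled on the left for sorafenib and for the combination.

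HSPA5 was the gene called with sorafenib alone, the comparison for the kinase inhibitor. It read 10.70, 10.74 and 10.52 log2 units on sorafenib arrays, against 10.94, 11.08 and 11.14 on control arrays. Every sorafenib array lay below every control array, and the fall was 0.40 with an SE of 0.10 (adjusted p = 0.0386, limma), a 1.32-fold difference. Of all genes tested, 1.59% of genes were called lower and 2.99% higher. No gene of the 30 was called higher. At an unadjusted p under 0.05 in limma 3 rose and 4 fell, a looser threshold at which all genes were not counted. The call of HSPA5 was lost without any single array of either group (adjusted p 0.0558 to 0.128), though the log2 change stayed negative in all 6 of these fits. HSP90B1 read 14.49, 14.70 and 14.52 with sorafenib, against 14.77, 14.74 and 14.99 in control, with no overlap. Its change of -0.26 ± 0.10 did not pass (adjusted p = 0.175, limma). HYOU1, the large Hsp70-like protein that also exchanges BiP's nucleotide, had a change of 0.36 (adjusted p = 0.137), and EIF2AK3 one of 0.30 (adjusted p = 0.138). EIF2AK3 read 9.62, 9.75 and 9.51 on sorafenib arrays, level with or above the highest control array (9.51). DNAJB9 read 10.17, 10.33 and 10.10 with sorafenib, against 10.23, 10.26 and 10.32 in control, a difference of -0.07. XBP1 read 14.03, 14.07 and 14.21, against 13.97, 13.82 and 14.17 (0.12), and ATF6 read 11.58, 11.57 and 11.86, against 11.88, 11.82 and 11.74 (-0.15). In these 3 genes the sorafenib and control arrays overlapped, and their differences did not pass.

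**Figure D3:**
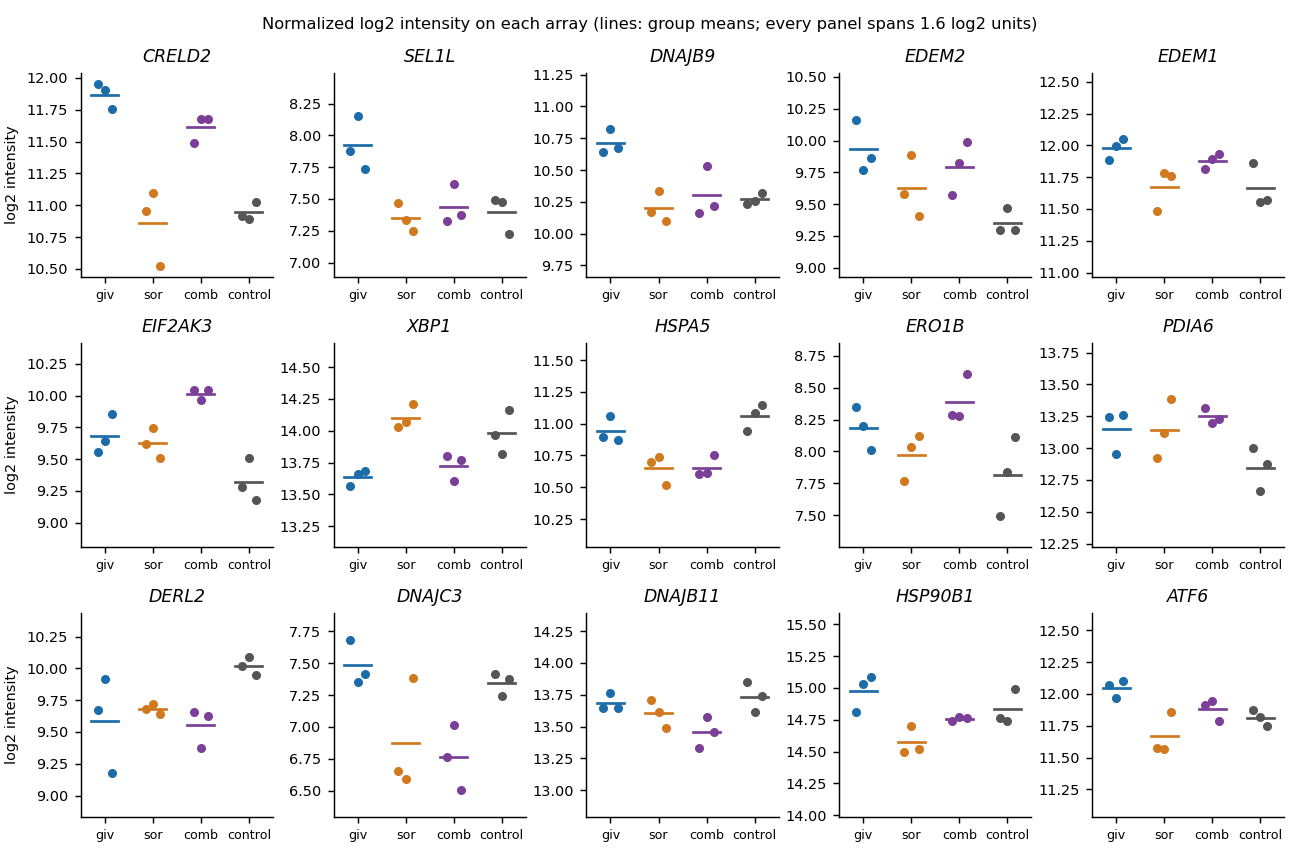
Normalized log2 intensity of 15 genes on each of the 12 arrays, with points for arrays and lines for group means, in the order givinostat (giv), sorafenib (sor), combination (comb) and control. CRELD2 is high on all 6 arrays with givinostat, HSPA5 is low on all 6 arrays with sorafenib, and EIF2AK3 is highest on the 3 combination arrays.

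With both drugs together against control, 5 of the 30 genes were higher and 4 were lower. Over all genes 20.9% were higher and 20.5% lower, so neither count exceeded the background, and the median log2 change was 0.06 for the 30 genes and -0.02 for all. EIF2AK3 had the smallest p of the 30: it read 10.04, 9.97 and 10.04 on combination arrays, against 9.28, 9.51 and 9.18 on control arrays. The rise was 0.69 ± 0.11 (adjusted p = 0.000423, limma), or 1.62-fold. CRELD2 read 11.49, 11.68 and 11.68, against 10.92, 10.89 and 11.02 in control, and rose by 0.67 ± 0.13 (adjusted p = 0.00180, limma). HSPA5 read 10.60, 10.61 and 10.75 with both drugs, against 10.94, 11.08 and 11.14 in control. It fell by 0.40 on the log2 scale with an SE of 0.10 (adjusted p = 0.00604, limma). The calls of these 3 genes held without each of the 6 arrays of the groups compared.

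The oxidoreductases ERO1B, which reoxidises disulfide isomerases, and PDIA6, such an isomerase, rose with both drugs. ERO1B read 8.29, 8.28 and 8.61 on combination arrays, against 7.49, 7.84 and 8.11 on control arrays, a rise of 0.57 ± 0.16 (adjusted p = 0.0140, limma), and its second probe gave 0.46 ± 0.10 (adjusted p = 0.00352, fit over all probes). PDIA6 read 13.31, 13.20 and 13.23 on combination arrays, against a mean of 12.85 ± 0.17 in control (SD, n = 3). It rose by 0.40 ± 0.13 (adjusted p = 0.0300, limma). EDEM2 read 9.57, 9.82 and 9.99, against 9.30, 9.47 and 9.30, and rose by 0.44 ± 0.15 (adjusted p = 0.0319, limma). In each of these 3 genes the lowest combination array lay above the highest control array.

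Beside HSPA5, the genes that fell with both drugs were a pair of BiP's J-domain partners and a derlin. DNAJC3, a co-chaperone also known to restrain PERK, read 6.76, 7.02 and 6.51 on combination arrays, against 7.41, 7.24 and 7.38 on control arrays. The fall was 0.58 with an SE of 0.20 (adjusted p = 0.0305, limma). DNAJB11 read 13.33, 13.57 and 13.46, against 13.85, 13.61 and 13.74, and fell by 0.28 (adjusted p = 0.0425, limma). DERL2 read 9.66, 9.37 and 9.63, against 10.02, 10.09 and 9.95, and fell by 0.47 with an SE of 0.16 (adjusted p = 0.0300, limma). Its second probe gave -0.34 and did not pass (adjusted p = 0.121, fit over all probes). XBP1, at 13.80, 13.60 and 13.77 against 13.97, 13.82 and 14.17 in control, did not pass with the probe that stood for it (-0.26, adjusted p = 0.0677), whereas its second probe did (-0.38, adjusted p = 0.0109, fit over all probes). Probes also disagreed for CANX, where the one used gave -0.04 and a second gave -0.40 (adjusted p = 0.00830, fit over all probes). HSP90B1 read 14.74, 14.77 and 14.76 on combination arrays, against 14.77, 14.74 and 14.99 on control arrays (-0.07). ATF6 read 11.91, 11.95 and 11.79, against 11.88, 11.82 and 11.74 (0.07), and DNAJB9 read 10.16, 10.54 and 10.22, against 10.23, 10.26 and 10.32 (0.04). These 3 overlapped with control and were not called.

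Several of the combination calls rested on single arrays, and 3 of the 9 held without combination array C. ERO1B was lost without control A or combination C (adjusted p 0.0617 for both). EDEM2 was lost without control A, control C, combination B or combination C (0.0776 to 0.123), and PDIA6 without any array other than control A (0.0537 to 0.115). DERL2 was lost without control A, control B, combination B or combination C (0.0508 to 0.111). DNAJC3 (0.0681 to 0.119) and DNAJB11 (0.0885 to 0.151) were lost without control A, control C, combination A or combination C. Without control A, 4 of the 9 were called, and without control C, 5 of the 9. When arrays were scaled to a common median in place of quantile normalization, 3 genes were called higher and 8 lower, with HSPA5, DERL2, DNAJC3, DNAJB11 and XBP1 among the lower ones, and the split over all genes was 1624 higher and 2612 lower in place of 2201 and 2155.

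What each drug did in the presence of the other was read from the combination against each single drug. Against givinostat, none of the 30 was called in limma, where 0.845% of all genes were called higher and 0.494% lower. At an unadjusted p under 0.05 in limma, 1 of the 30 rose and 5 fell. All genes were not counted at that looser threshold, so the shares of called genes are no background for these counts. The smallest p-values were those of SEL1L (-0.48 ± 0.13, adjusted p = 0.0903), DNAJC3 (-0.72 ± 0.20, adjusted p = 0.0929) and DNAJB9 (-0.41 ± 0.11, adjusted p = 0.0948). SEL1L read 7.33, 7.62 and 7.38 on combination arrays, against 7.87, 8.15 and 7.74 on givinostat arrays, and DNAJB9 read 10.16, 10.54 and 10.22, against 10.64, 10.82 and 10.67. In both genes every combination array lay below every givinostat array. Against sorafenib, 3 genes were higher and 2 lower, where 17.8% of all genes were higher and 17.5% lower. CRELD2 was higher by 0.76 ± 0.13 (adjusted p = 0.00107, limma), SDF2L1, a partner of DNAJB11, by 0.40 ± 0.11 (adjusted p = 0.0152) and EIF2AK3 by 0.39 ± 0.11 (adjusted p = 0.0169). XBP1 was lower (-0.38 ± 0.11, adjusted p = 0.0154) and so was HYOU1 (-0.37 ± 0.13, adjusted p = 0.0450).

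Of these 5, HYOU1 was lost without any array other than combination B (adjusted p 0.0667 to 0.144), EIF2AK3 without sorafenib C or combination C (0.0529 and 0.0506), SDF2L1 without combination C (0.0683) and XBP1 without combination B (0.0633). Without combination C the count was 2. Median scaling put the median log2 change of all genes at -0.133 in this contrast, against -0.01 after quantile normalization, called 2 of the 30 higher and 8 lower, and split all genes into 1375 higher and 3045 lower in place of 1873 and 1847. CRELD2, XBP1 and HYOU1 kept their calls there, and SDF2L1 and EIF2AK3 did not. The interaction, a test of departure from additive log2 changes, was called for none of the 30 in limma. Of all genes, 0.0095% were called in each direction. At an unadjusted p under 0.05 in limma 1 of the 30 passed, and all genes were not counted at that threshold. Median scaling moved the median interaction of all genes to -0.11 and called 0 genes higher and 5 lower, in place of 1 and 1. SEL1L had the smallest p, with -0.43 (95% interval -0.83 to -0.04, adjusted p = 0.417).

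Each drug's change was also averaged over both backgrounds, a contrast that sets 6 arrays with a drug against 6 without it. It was added after the data had been seen. The lack of interaction calls among the 30 does not show equal changes on both backgrounds, so an average may describe neither. For givinostat, 12 of the 30 were higher and 2 lower, where 24% of all genes were higher and 24.6% lower. The genes called higher included SEL1L, SYVN1 and DERL1 of the degradation complex, while DERL2 had a change of -0.28 that missed the threshold (adjusted p = 0.0524). CRELD2 averaged 11.74 with givinostat and 10.90 without it (0.84 ± 0.09, adjusted p = 1.8e-05, limma). EIF2AK3 averaged 9.85 with and 9.47 without (0.38 ± 0.08, adjusted p = 0.00188), SDF2L1 13.62 and 13.28 (0.34 ± 0.08, adjusted p = 0.00393), and ERO1B 8.29 and 7.90 (0.39 ± 0.12, adjusted p = 0.0137). SEL1L rose by 0.31, the ubiquitin ligase SYVN1 by 0.26, DERL1 by 0.25, EDEM1 by 0.26 and EDEM2 by 0.37. SEL1L averaged 7.92 with givinostat against 7.40 in control, and 7.44 with both drugs against 7.35 with sorafenib. For DNAJB9 these means were 10.71 against 10.27, and 10.31 against 10.20. The interaction was called for neither gene, so a difference between the backgrounds was not shown. DNAJB9 (0.27), ATF6 (0.22) and the BiP nucleotide exchange factor SIL1 (0.22) made up the rest. XBP1 averaged 13.68 with givinostat and 14.04 without it (-0.36 ± 0.07, adjusted p = 0.00166, limma), and HYOU1 11.49 and 11.75 (-0.26 ± 0.09, adjusted p = 0.0380).

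Normalization decided part of the averaged givinostat result. Under median scaling 5 genes were called higher and 7 lower, and all genes split into 1982 higher and 3263 lower in place of 2525 and 2593. Under both normalizations 7 genes were called with the same sign, CRELD2, EDEM2, EIF2AK3, ERO1B and SEL1L higher and XBP1 and HYOU1 lower. HYOU1 was lost without control A, control B, givinostat A, givinostat C, sorafenib C, combination A or combination C (adjusted p 0.0501 to 0.0923). SIL1 was lost without control A, control C, givinostat B, sorafenib C, combination A or combination C (0.0527 to 0.0753), and SYVN1 without control A, givinostat A, givinostat C, sorafenib B, sorafenib C, combination A or combination C (0.0793 to 0.110). SIL1 was also lost under median scaling, without the detection filter and with the mean of all detected probes (0.0619 to 0.330). SYVN1 was lost in the same settings and with the letters as a replicate block (0.0620 to 0.430). Its probes disagreed for the combination against sorafenib, where the one used gave 0.38 and a second gave -0.29. Against control, givinostat gave 0.14 and 0.18 with these probes.

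For sorafenib averaged over both backgrounds, 1 gene was higher and 2 were lower, where 4.85% of all genes were higher and 3.76% lower. HSPA5 read 10.52 to 10.75 on the 6 arrays with sorafenib and 10.88 to 11.14 on the 6 without it (-0.35 ± 0.07, adjusted p = 0.0123, limma), and none of the 12 left-out arrays or the other settings tried removed this call. DNAJC3 averaged 6.82 and 7.41 (-0.60 ± 0.14, adjusted p = 0.0219, limma), with sorafenib array C at 7.39 standing apart from the other arrays with sorafenib, which reached at most 7.02. EIF2AK3 averaged 9.82 and 9.50 (0.32 ± 0.08, adjusted p = 0.0295, limma). DNAJC3 missed the threshold without givinostat A or combination C (adjusted p 0.0519 and 0.0527), and without either of these arrays 1 gene was called. EIF2AK3 held only without control B, givinostat C, sorafenib A or sorafenib C, with an adjusted p of 0.0509 to 0.0684 without each of the others. EIF2AK3 was thus the gene called for both drugs in the averaged contrasts, higher with each.

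**Figure D4:**
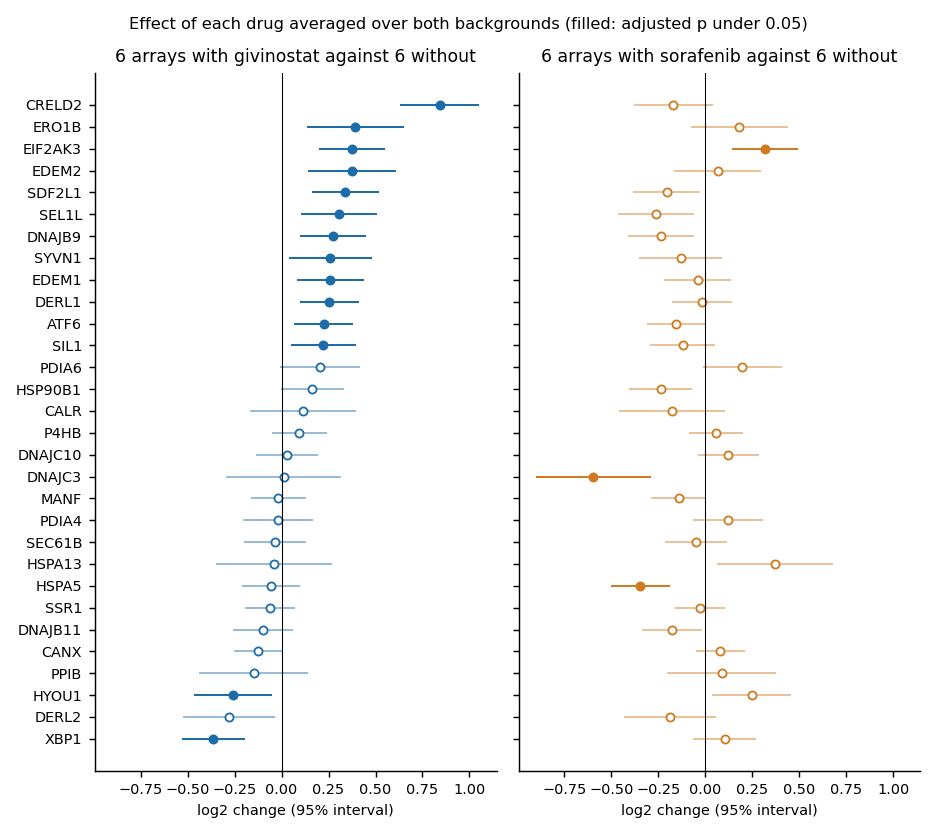
Log2 change with its 95% interval for 6 arrays with a drug against 6 without it, givinostat on the left and sorafenib on the right, in the order of the givinostat change; filled points are called. CRELD2 is at the top with 0.84 and XBP1 at the bottom with -0.36 for givinostat, and HSPA5 and DNAJC3 are the filled points left of 0 for sorafenib.

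Counts by role are small and were not tested against each other. Of the 6 tested degradation genes, givinostat raised 3, where 17.6% of all genes were higher, and the combination raised 1 and lowered 1, where 20.9% of all genes were higher and 20.5% lower. Of the 5 tested oxidoreductases and prolyl isomerases, PDIA6 and ERO1B were called with the combination, while PDIA4, P4HB and PPIB stayed between -0.29 and 0.16 in all 3 contrasts. The lectins CALR and CANX lay between -0.07 and 0.22, and the translocon genes SEC61B and SSR1 between -0.09 and 0.01. MANF, a secreted stress-induced factor, had changes between -0.16 and 0.00. HSPA13, a divergent Hsp70, changed by 0.39 with sorafenib and 0.33 with the combination, where sorafenib array C read 9.58 against 8.59 and 8.98 on the other sorafenib arrays, and neither value passed. In all, 17 of the 30 were called in none of the 3 contrasts with control. CRELD2, EDEM2 and EIF2AK3 were higher with givinostat and with the combination, and HSPA5 was lower with sorafenib and with the combination. Called with givinostat only were SEL1L, DNAJB9 and EDEM1 (higher) and XBP1 (lower). Called with the combination only were ERO1B and PDIA6 (higher) and DERL2, DNAJC3 and DNAJB11 (lower). All genes were not counted by these patterns, so the tally has no background beside it.

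Calls among the genes holding an ERSE or ERSE-II went in both directions. Over all genes, 17.6% were higher and 15.7% lower with givinostat, and 20.9% and 20.5% with the combination. With sorafenib these shares were 2.99% and 1.59%. The counts below are small and were not tested against these shares. Of the 10 tested genes with such an element, givinostat raised 1 (CRELD2) and lowered 1 (XBP1), and of the 19 tested genes with a promoter entry but no element it raised 5. Median log2 changes were 0.18 with an element and 0.08 without. For the combination, 3 of the 10 were higher (CRELD2, ERO1B and PDIA6) and 1 lower (HSPA5), against 2 higher and 3 lower of the 19. With sorafenib the called gene, HSPA5, was among the 10. HSPA5 and CRELD2, whose elements lie at similar distances from the start, changed by -0.40 and 0.67 with both drugs.

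Beyond these 35 genes, 167 further genes of the pathway were listed, of which 144 were tested. Givinostat raised 22 and lowered 11 of them, sorafenib raised 7 and lowered 2, and the combination raised 22 and lowered 22. Of all genes, 17.6% were higher and 15.7% lower with givinostat, and 2.99% and 1.59% with sorafenib. With the combination these shares were 20.9% and 20.5%. The counts of each list below stand beside these shares. The list named PERK arm and stress effectors had most calls for sorafenib, though the activity of PERK was not measured. Of its 13 tested genes, 6 were higher, with a median log2 change of 0.42 over the list. These were the lipoprotein receptor VLDLR (1.05 ± 0.10, adjusted p = 0.000410, limma), asparagine synthetase ASNS (0.98 ± 0.09, adjusted p = 0.000410), CEBPG (0.50), ATF4 (0.42), ATF3 (0.40) and DDIT3, which encodes CHOP (0.59). The sorafenib calls of VLDLR and ASNS held in all settings tried. With only the compared groups CEBPG was lost (adjusted p = 0.0770, limma). In that setting no further pathway gene other than VLDLR and ASNS was called with sorafenib. Over all genes 54 were higher and 21 lower there, in place of 315 and 167. With the combination 5 of the 13 were higher and 1 lower, among them VLDLR (1.71 ± 0.10, adjusted p = 2.05e-07, limma), ASNS (1.03 ± 0.09, adjusted p = 7.05e-06) and CEBPG (0.47 ± 0.09, adjusted p = 0.00105). With givinostat 3 were higher and 1 lower, where VLDLR changed by 0.96, ASNS by 0.34 and ATF5 by -0.56. ASNS was lost there without control B or givinostat B (adjusted p 0.0609 and 0.0532), and with the mean of all detected probes (0.0732).

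In the list of sensor processing and ER stress factors, 4 of 15 tested genes were higher with givinostat, led by MBTPS2, the protease that releases ATF6 from the membrane (0.53 ± 0.10, adjusted p = 0.00185, limma), CREB3L2, an ATF6-like factor (0.54), and WFS1 (0.62). The combination raised 4 and lowered 1, including PMAIP1 (NOXA, 0.83 ± 0.12, adjusted p = 0.000193, limma), MBTPS2 (0.51) and CREB3L2 (0.52). The combination call of MBTPS2 was lost with the mean of all detected probes (adjusted p = 0.122, limma). With sorafenib PMAIP1 was higher (0.50, adjusted p = 0.0382), a call lost without any single array (adjusted p 0.0582 to 0.117). Of 23 further degradation genes, BCAP31 (0.49), SELENOS (0.39) and HERPUD2 (0.44) were higher with givinostat and ERLIN1 was lower (-0.82 ± 0.16, adjusted p = 0.00179, limma). The HERPUD2 call was lost with the mean of all detected probes (adjusted p = 0.195, limma). VCP, the ATPase that extracts substrates from the membrane, was lower with sorafenib (-0.45 ± 0.11, adjusted p = 0.0414, lost without any single array at 0.0501 to 0.136) and with the combination (-0.50 ± 0.11, adjusted p = 0.00354, limma), where 3 of the 23 were higher and 2 lower.

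Among 21 other ER chaperones and lumenal proteins, 4 were higher and 4 lower with givinostat, and 2 higher and 6 lower with the combination. DNAJB12, a membrane J-domain protein, averaged 7.93 log2 units with givinostat, 8.25 with sorafenib and 7.89 with both, against 8.80 in control. It was called in all 3 contrasts (-0.88, -0.55 and -0.91), though for sorafenib not without control C (adjusted p = 0.0620, limma). The sorafenib call was also lost with the mean of all detected probes and with only the compared groups (adjusted p 0.0680 to 0.347, limma). TOR1A (-0.65) and the calcium binder RCN1 (-0.57) were lower with givinostat, and likewise with both drugs (-0.54 and -0.49). Of 19 other disulfide and prolyl isomerases, 3 were higher and 3 lower with givinostat and 5 higher and 4 lower with the combination. FKBP7, a prolyl isomerase that binds BiP, averaged 8.08 with givinostat and 7.56 with both drugs, against 6.88 in control (1.20 ± 0.14, adjusted p = 5.06e-05, and 0.68 ± 0.14, adjusted p = 0.00192, limma). TXNDC15 was lower with givinostat (-0.46) and with both (-0.43), and QSOX2 was lower with both (-0.54).

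The genes that bring proteins to the ER membrane and carry them onward gave other counts. Of 22 genes of signal recognition, translocon and signal peptidase, 5 (22.7%) were lower with the combination, near the 20.5% of all genes. SRP68 (-0.45), SRP19 (-0.43) and SRPRA (-0.49) were among them, and these 3 were lost without control A (adjusted p 0.0505, 0.0557 and 0.0711), SRP19 also without combination B (0.0650) and SRPRA without combination C (0.0829). With givinostat SEC62 (0.53) and SRP14 (0.35) were higher and SEC61A1 was lower (-0.32). SRP14 missed the threshold without any array other than control B (adjusted p 0.0512 to 0.128), and SEC61A1 without control C, givinostat A or givinostat B (0.0869 to 0.133). Of 11 COPII coat genes, SEC24D was higher with givinostat and with the combination (0.43 in each), and SEC16A was lower in both (-0.45 and -0.40). SEC23A was lower with the combination (-0.45, adjusted p = 0.0215, limma, and 0.0608 to 0.0801 without control A, control C, combination B or combination C). In all, 3 of the 11 (27.3%) were lower there, beside the same 20.5% of all genes. Of 10 calnexin cycle and glycan trimming genes, the mannosidase MAN1A1 was higher with givinostat (0.71 ± 0.14, adjusted p = 0.00198, limma) and with both drugs (0.93 ± 0.14, adjusted p = 0.000241), and of 10 oligosaccharyltransferase genes STT3B was higher with givinostat (0.41, lost without control B, control C, givinostat A or givinostat C at adjusted p 0.0522 to 0.0753).

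**Figure D5:**
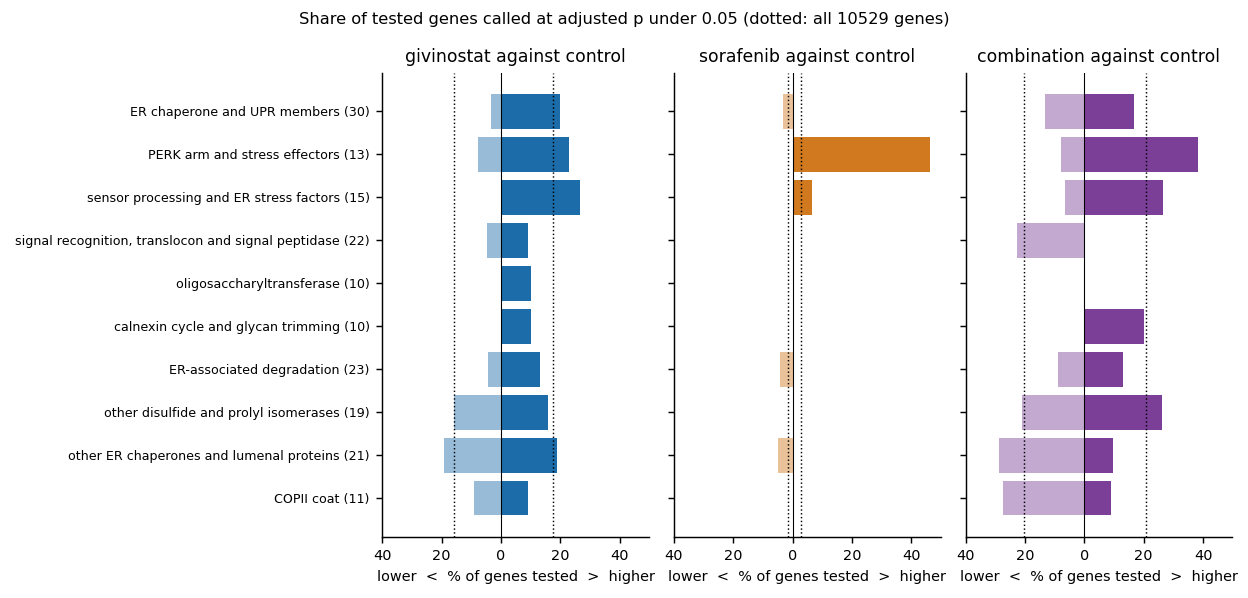
Share of tested genes in each list that was called higher (right, dark) or lower (left, pale) against control, with the number tested in brackets and the share of all genes as dotted lines. The bar of the PERK arm and stress effectors for sorafenib, 6 of 13 genes, extends farther from the dotted lines than any other bar.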

How the data were processed

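RNA of HDLM-2 cells was read on bead arrays with BeadStudio, per the submitters' processing notes. The deposited file holds a raw intensity per probe and a detection fraction, read here as 1 minus the detection p-value because it rose with intensity (lowest Spearman correlation 0.992, across probes). The authors' processed values, quantile-normalized linear intensity per the values themselves, served as an alternative. Intensities were background-corrected (limma 3.58.1, normexp, offset 16), then log2-transformed and afterwards quantile-normalized in R 4.3.3. A probe was kept if some group had it above background (detection p under 0.05) on every array, and the probe with the highest mean stood for its gene. One limma fit over 12 arrays gave all contrasts, with two-sided moderated p-values adjusted by the Benjamini-Hochberg method over 10529 genes; it was tested on simulated data. Of the 30 genes, 8 had several detected probes. The number of arrays limits the precision.

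The gene set and the lists were chosen with earlier results of these data known. Arrays are given for genes called against control and for HSPA5, HSP90B1, DNAJB9, XBP1, ATF6 and EIF2AK3 in each contrast with control, and up to 3 genes with the smallest adjusted p stand for each further list and contrast; ATF3, ATF4 and DDIT3 for sorafenib and HERPUD2 for givinostat fall outside that rule and were named after their values were seen. Array letters were not used to pair the samples in the main fit. Protein sequences were planned but not used here.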

Additional observations from a re-analysis of the deposited data

How the results depend on the processing

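Of 5490 refits of single gene values under the alternatives, 5188 stayed on their side of the threshold, 207 lost the call and 95 gained it, and no called value changed sign. Each range for left-out arrays covers the arrays of the groups compared. For givinostat, 7 genes of the 30 were called, and 11 without background correction and 11 with the authors' processed values; leaving out arrays gave 5 to 6. For sorafenib the single call became 0 under median scaling, without the detection filter, with only the compared groups, with array weights and with the replicate block, and leaving out arrays gave 0 to 1. For the combination 9 became 4 without the detection filter, and leaving out arrays gave 3 to 8. The combination against givinostat had 0, and 1 without background correction, 1 with the authors' values and 2 with array weights; leaving out arrays gave 0. Against sorafenib 5 became 10 under median scaling, and leaving out arrays gave 2 to 5. Averaged counts, with every alternative chosen after seeing the data, were 14 for givinostat (11 to 15 leaving out arrays) and 3 for sorafenib (1 to 4). Of the further pathway genes 9 were called with sorafenib, 5 without the detection filter and 2 with only the compared groups. Sorafenib calls over all genes also fell in these settings, from 315 higher and 167 lower. They were 145 and 69 of 18852 genes without the filter, and 54 and 21 with only the compared groups. For the further pathway genes, leaving out arrays gave 4 to 8 with sorafenib, against 25 to 29 for givinostat and 30 to 39 for the combination. The cause of these shifts was not tested. Under median scaling all genes split into 548 higher and 156 lower for sorafenib, in place of 315 and 167, and into 85 and 109 for the combination against givinostat, in place of 89 and 52. Whether the array letters pair the samples was not settled. Of 18 same-letter correlations, from -0.06 to 0.25, 5 exceeded 0.1, and different letters were not compared. With the letters as a replicate block EDEM1 lost its givinostat call (adjusted p = 0.0665, limma) and DERL1 gained one (0.0482), and DNAJB11 lost its combination call (0.0565) and XBP1 gained one (0.0483). The counts with this block were 7 for givinostat, 0 for sorafenib, 9 for the combination, 0 against givinostat, 5 against sorafenib, 0 for the interaction, 13 and 3 for the averaged contrasts, and 33, 8 and 44 for the further pathway genes.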
